A study of Mus musculus with 6 samples.

Results

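The genes described here are 43 genes of DNA replication and cell division, chosen by name out of 32028 genes counted. Of these, 24 act in or mark S phase, when DNA is copied, and 19 act in G2 and mitosis. All 43 carried enough counts to be tested, so no member was dropped by the filter on low counts. They were measured in poly(A) RNA of 6 clonal lines of mouse embryonic fibroblasts. The 3 knockout clones were Macf1-/- and came from Macf1flox/flox mice. The 3 het clones were Macf1-/+ and came from Macf1flox/+ mice. Macf1 encodes a giant linker of actin filaments and microtubules. What both genotypes share bears on cell cycle genes: all 6 lines had been immortalized with the SV40 large T antigen, treated with AAV8-CMV-Cre, a virus that delivers Cre recombinase under the CMV promoter, and raised from single cells, and RNA was taken from confluent cells. Each replicate is therefore a clone. The sources used here do not give the number of embryos or parental cultures behind the clones, so p-values measure the spread between clones. The labels pose no question about the cell cycle, and the comparison made here is knockout clones against het clones.

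The estimated counts totalled 15661342 to 18209673 per clone. Macf1 stood at 309, 363 and 322 CPM in the knockout clones, against 693, 696 and 579 CPM in the het clones (CPM, counts scaled to the same library size; log2 fold change -0.99, adjusted p = 0.00307). The sources used here do not say which exons Cre removes, and the level over the whole gene is no check of the recombination. The fibroblast label was set against 12 marker genes, of which 9 were tested, 6 were lower and 0 higher in the knockout clones. Vim was at 1595 CPM or more and Fn1 at 3936 CPM or more in every clone. Col1a1 was at 2.69 to 13.8 CPM in the knockout clones, against 1019 to 1498 CPM in the het clones. Col1a2 was at 0.855, 1.23 and 0.362 CPM in knockout and 1930, 408 and 830.2 CPM in het clones, and Prrx1 at 20.1, 20.4 and 20.7 CPM in knockout and 380.4, 155 and 240.1 CPM in het clones. Dcn had no counts in any knockout clone and 0.169 to 1.02 CPM in the het clones, Thy1 had none in any knockout clone and in the het clones only 0.0598 CPM in replicate 1, and Lum had none in any clone. The summed level of the 12 genes was 5628 to 8150 CPM in the knockout clones and 9169 to 12898 CPM in the het clones. All 7 epithelial markers were below 1 CPM in every clone, as were 4 of 5 endothelial, 4 of 5 muscle, 4 of 5 pluripotent and germ cell, 3 of 6 blood cell and 3 of 6 neural markers. The neural list summed to 15.4 to 19.96 CPM in knockout and 46.6 to 70.5 CPM in het clones, and the blood cell list, most of it Cd14 and Cd68, to 21.6 to 26.4 CPM in knockout and 11.6 to 16.5 CPM in het clones. The part of these differences between the lines in the cell cycle results was not tested.

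The cell cycle genes are transcribed in waves. In late G1, E2F factors are released from the RB family of repressors and switch on the genes that load and fire replication origins and supply nucleotides. Later, a complex that contains B-MYB and FOXM1 switches on the genes of mitosis through a promoter element called the CHR, which repressors of the DREAM complex occupy in resting cells. Large T antigen binds the RB family and frees E2F, which is one reason why it immortalizes fibroblasts and weakens their arrest at confluence.

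Parts of the replication machinery were higher and much of the mitotic machinery was lower in the knockout clones. In knockout clones, 4 of the 6 subunits of the MCM helicase, the licensing factor Cdt1 and both main subunits of ribonucleotide reductase rose, by 0.39 to 0.69 on the log2 scale. The mitotic cyclin Ccnb1, its transcription factor Foxm1, the phosphatases Cdc25b and Cdc25c, the checkpoint genes Bub1b and Mad2l1, and Aurkb, Birc5, Top2a and Tpx2 fell, by 0.38 to 0.94 on the log2 scale, and Incenp rose. The S phase genes Tk1, Cdk2, E2f7 and E2f8 fell as well. Of the 24 S phase genes, 7 were higher, 4 lower and 13 did not pass an adjusted p of 0.05 (edgeR quasi-likelihood test, adjusted over 12745 genes), and with RLE in place of TMM scaling 5 were higher and 5 lower. Of the 19 G2/M genes, 1 was higher, 10 were lower and 8 did not pass. Among all genes tested, 28.1% passed in either direction, 13.9% higher and 14.2% lower. Set against that background, 45.8% of the S phase genes passed, 29.2% higher and 16.7% lower, and 57.9% of the G2/M genes, 5.26% higher and 52.6% lower. The knockout and het clones did not overlap for 16 S phase genes, 8 higher and 8 lower in the knockout, and for 13 G2/M genes, 1 higher and 12 lower. For all genes tested the share without overlap was 47.5%, with 23.8% higher and 23.7% lower. The median log2 fold change was -0.01 for the S phase genes (range -0.86 to 0.69) and -0.45 for the G2/M genes (range -0.94 to 0.42), beside -0.00061 for all genes tested. The S phase count of 11 was 3 without knockout replicate 1 or 2, and 7, 4 and 6 without het replicate 1, 2 and 3. The G2/M count of 11 was 7 and 3 without knockout replicate 1 and 2, and 6 without het replicate 2. Over all genes, 1892 of 13183 passed without knockout replicate 1 and 1566 of 13227 without knockout replicate 2. Without het replicate 1, 2 and 3, 3825 of 13138, 2227 of 12987 and 2424 of 12966 passed. The S phase share was near that of all genes without knockout replicate 1 or 2 or het replicate 2. With the median change of the 40 nearest genes on the chromosome taken out of each gene, 9 S phase genes passed, 5 higher and 4 lower, and 5 G2/M genes, all lower. These include E2f1, Ccne2 and Ccna2, which did not pass in the test above, and 11 of the 22 passing genes lost their call. Of all 12745 genes, 1306 were higher and 1596 lower with the local median taken out. In bulk RNA, fewer cells in a phase and less RNA of a gene per cell cannot be told apart.

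**Figure D1:**
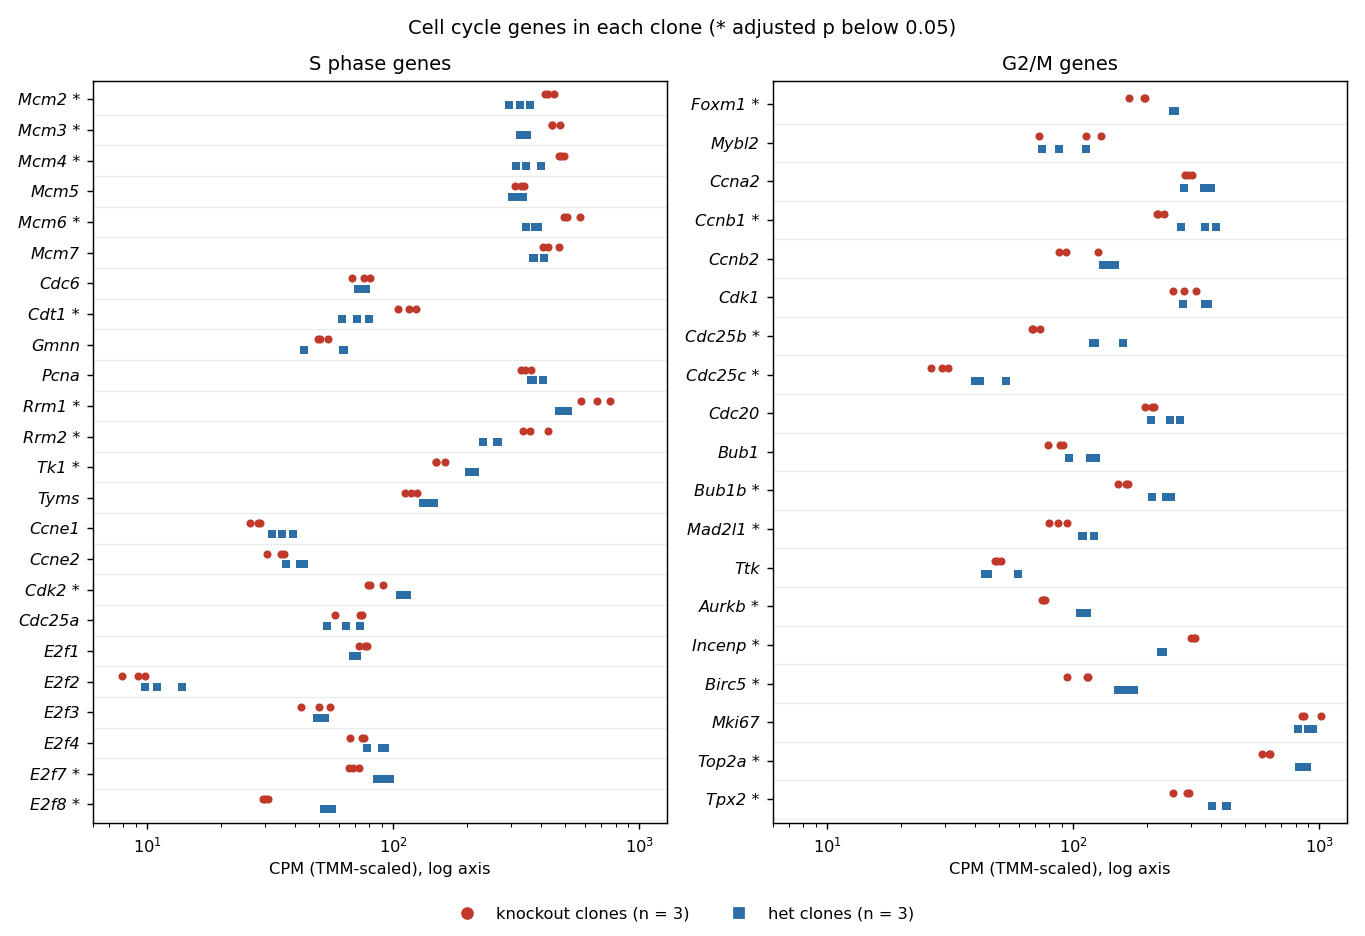
Level of each of the 43 genes in each clone, in CPM on a log axis, with S phase genes on the left and G2/M genes on the right. Red circles are the 3 knockout clones, blue squares the 3 het clones, and a star marks an adjusted p below 0.05. Red lies right of blue for Cdt1, Rrm2 and the passing MCM genes, and left of blue for 12 of the 19 G2/M genes.

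Promoter sequence was available for 33 of the 43 genes in a RefSeq table of GRCm38.p6 that spans 250 bases before to 50 bases after each gene's start. The E2F pattern was searched as TTT, then 2 bases that are each C or G, then CGC. The other patterns were the CHR (TTTGAA) and the CCAAT box, and all were searched on both strands and separately, so that matches may overlap. Some genes had more than 1 promoter, and a gene was counted if any of them held the pattern. The E2F pattern was found for 11 of 20 S phase genes and 1 of 13 G2/M genes, Cdk1, beside 2.60% of 27025 genes. The CHR pattern was found for 4 of 20 S phase and 7 of 13 G2/M genes, beside 20.2% of all. CCAAT was found for 14 of 20 and 10 of 13, beside 41.1% of all. Split by direction of change, the E2F pattern was found for 3 of 6 genes that rose, 2 of 10 that fell and 7 of 17 that did not pass. The CHR pattern was found for 1, 3 and 7 of them. A match is a run of letters and not a bound site.

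To show what lies before the genes with the smallest adjusted p in each phase among those in the table, which lacks Aurkb, the 150 bases before the start of 3 S phase and 3 G2/M genes are given 5′ to 3′ on the gene's strand, from RefSeq (GRCm38.p6). Capitals mark matches to the CHR or CCAAT pattern on either strand. E2f8 lies at chr7:48881597-48881746 (minus strand), Cdt1 at chr8:122567865-122568014 (plus), Tk1 at chr11:117826015-117826164 (minus), Cdc25b at chr2:131186798-131186947 (plus), Birc5 at chr11:117849087-117849236 (plus) and Bub1b at chr2:118598061-118598210 (plus).
E2f8: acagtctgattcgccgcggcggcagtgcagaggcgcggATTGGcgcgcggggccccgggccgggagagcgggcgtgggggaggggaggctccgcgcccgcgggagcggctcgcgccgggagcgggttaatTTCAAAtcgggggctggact
Cdt1: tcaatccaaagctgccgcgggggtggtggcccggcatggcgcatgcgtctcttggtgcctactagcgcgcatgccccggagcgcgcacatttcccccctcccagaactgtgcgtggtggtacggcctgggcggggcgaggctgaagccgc
Tk1: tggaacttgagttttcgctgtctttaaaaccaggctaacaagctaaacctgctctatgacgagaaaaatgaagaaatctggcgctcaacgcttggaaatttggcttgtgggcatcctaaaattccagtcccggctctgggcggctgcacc
Cdc25b: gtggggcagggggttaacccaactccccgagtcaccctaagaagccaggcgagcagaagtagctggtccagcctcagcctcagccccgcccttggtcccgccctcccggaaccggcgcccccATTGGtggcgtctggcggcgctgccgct
Birc5: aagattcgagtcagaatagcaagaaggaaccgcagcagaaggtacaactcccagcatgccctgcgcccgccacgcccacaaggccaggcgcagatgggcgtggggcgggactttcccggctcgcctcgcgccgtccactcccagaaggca
Bub1b: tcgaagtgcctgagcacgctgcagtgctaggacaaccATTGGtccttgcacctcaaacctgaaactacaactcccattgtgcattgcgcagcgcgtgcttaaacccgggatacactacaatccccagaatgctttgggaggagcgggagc
The stretch before E2f8, whose product represses E2F targets, held a CHR match ending 15 bases before the start. The stretches before Cdt1, Tk1 and Birc5 held no match to the 3 patterns. In Cdt1 the E2F match lay after the start instead, and in Bub1b the CHR match did.

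The E2F and CHR matches of passing genes are shown as 30-base stretches of the same table, picked after their matches were known, with 1 match shown per gene. Mcm3 and Top2a held 1 more match of the pattern shown and Mcm6 held 2 more, and the CHR match of E2f8 is in its stretch above. Capitals mark the match, and the distance is that of its first base from the start. The E2F matches are of Mcm3 (chr1:20820263-20820292, minus strand, 39 bases downstream), Mcm6 (chr1:128359734-128359763, minus, 47 upstream), Cdt1 (chr8:122568035-122568064, plus, 33 downstream), Cdk2 (chr10:128705173-128705202, minus, 140 upstream) and E2f7 (chr10:110745230-110745259, plus, 198 upstream).
Mcm3: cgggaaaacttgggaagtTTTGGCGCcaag
Mcm6: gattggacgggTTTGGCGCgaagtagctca
Cdt1: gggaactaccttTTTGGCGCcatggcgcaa
Cdk2: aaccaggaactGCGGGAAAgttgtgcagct
E2f7: cccgcgtccccGCGGGAAAcgctcccgcgt
Mcm3, Mcm6 and Cdt1 rose, and Cdk2 and E2f7 fell, so genes of both directions held the letters, before the start in Mcm6, Cdk2 and E2f7 and after it in Mcm3 and Cdt1. The CHR matches are of Mcm2 (chr6:88898833-88898862, minus strand, 70 upstream), Bub1b (chr2:118598231-118598260, plus, 41 downstream) and Top2a (chr11:99024195-99024224, minus, 23 upstream).
Mcm2: agggctcagcctTTTGAAagctgtgggcgg
Bub1b: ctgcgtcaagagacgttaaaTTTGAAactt
Top2a: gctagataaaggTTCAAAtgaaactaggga
Mcm2 rose and the other two fell.

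The MCM helicase unwinds DNA at replication forks, and its 6 subunits are loaded on origins as a ring. Of the 6 genes, 4 rose and 2 did not pass, with a median log2 fold change of 0.41. Mcm6 stood at 509, 492 and 572 CPM in the knockout clones, against 346, 377 and 387 CPM in the het clones (log2 fold change 0.50, SE 0.11, adjusted p = 0.0189). Mcm4 measured 479, 471 and 492 CPM in knockout and 316, 399 and 347 CPM in het clones (0.44, SE 0.12, adjusted p = 0.0343). In both genes every knockout clone lay above every het clone. The same held for Mcm3, with 475, 441 and 443 CPM in knockout and 327, 348 and 339 CPM in het clones (0.42, adjusted p = 0.0204), and for Mcm2, with 448, 426 and 413 CPM in knockout and 328, 295 and 361 CPM in het clones (0.39, adjusted p = 0.0434). Knockout replicate 3 was the highest clone for Mcm4 and Mcm6 and the lowest of its genotype for Mcm2. Mcm5, at 328 ± 14.3 CPM in knockout and 318 ± 17.4 CPM in het clones (SD, n = 3 each), had a log2 fold change of 0.04 (adjusted p = 0.764), and Mcm7, at 435 ± 32.3 CPM in knockout and 384 ± 22.02 CPM in het clones, one of 0.18 (adjusted p = 0.263). The subunits form 1 ring, and whether Mcm5 and Mcm7 differ from the other four in their change was not tested.

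Each of the 4 MCM calls was lost without some clone. For Mcm2 this was so without knockout replicate 1, 2 or 3 (adjusted p = 0.126, 0.136 and 0.050002) or het replicate 1, 2 or 3 (0.0844, 0.148 and 0.0545), and for Mcm3 without knockout replicate 1 or 2 (adjusted p = 0.0715 and 0.0798) or het replicate 1, 2 or 3 (0.0511, 0.0635 and 0.0654). Mcm4 lost its call without knockout replicate 1, 2 or 3 (adjusted p = 0.0913, 0.108 and 0.0515) or het replicate 1 or 3 (0.0805 and 0.102), and Mcm6 without knockout replicate 1 or 2 (adjusted p = 0.0535 and 0.0614) or het replicate 2 (0.0644). Over the 15 alternatives their adjusted p ran from 0.00564 to 0.148 for Mcm2, 8.81e-06 to 0.0798 for Mcm3, 0.00120 to 0.215 for Mcm4 and 2.53e-05 to 0.0644 for Mcm6, always with a positive fold change. Mcm2 also missed the threshold with RLE scaling (0.0519) and without a filter on low counts (0.057), and Mcm4 with the local chromosome median of 0.21 taken out (0.215). Mcm4 lies on chromosome 16, where the median of all genes tested was 0.25. That median was -0.06 on chromosome 1, which holds Mcm3 and Mcm6, and -0.12 on chromosome 6, which holds Mcm2.

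Licensing, the loading of MCM rings in G1, needs CDC6 and CDT1 and is blocked by geminin, which binds CDT1. Of these 3 genes Cdt1 rose and the others did not pass. Cdt1 was at 124, 115 and 104 CPM in the knockout clones, against 80.0, 62.1 and 71.0 CPM in the het clones, with no overlap (log2 fold change 0.69, SE 0.12, adjusted p = 0.00865). This was the highest fold change among the 43 genes, and the call held under all 15 alternatives (adjusted p 6.09e-05 to 0.0461). Cdc6 measured 74.8 ± 6.40 CPM in knockout and 74.6 ± 2.90 CPM in het clones (0.00, adjusted p = 0.977). Gmnn, which encodes geminin, measured 51.3 ± 2.62 CPM in knockout and 56.3 ± 11.3 CPM in het clones (-0.13, adjusted p = 0.567), with het replicate 3 at 43.2 CPM below all other clones. Pcna, the sliding clamp that holds polymerases on DNA, was at 344, 329.6 and 363 CPM in knockout and 405, 362 and 371 CPM in het clones. The clones overlapped for Pcna only in that knockout replicate 3 lay just above het replicate 2 (-0.14, adjusted p = 0.358).

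The genes that make DNA precursors went both ways. Ribonucleotide reductase turns ribonucleotides into deoxyribonucleotides, and Rrm2, its S phase-regulated subunit, stood at 426, 361 and 338 CPM in the knockout clones, against 231, 263 and 267 CPM in the het clones (log2 fold change 0.56, SE 0.13, adjusted p = 0.0181). Rrm1, the large subunit, was at 762, 674 and 577 CPM in knockout and 514, 485 and 472 CPM in het clones (0.45, SE 0.14, adjusted p = 0.0478). Knockout replicate 1 was the highest clone for both, and the genotypes did not overlap for either gene. Tk1, the thymidine kinase that salvages thymidine, fell instead. It measured 149.6, 163 and 149.6 CPM in knockout and 203, 215 and 209 CPM in het clones (-0.44, SE 0.09, adjusted p = 0.0110), and its call held under all 15 alternatives (adjusted p 5.91e-06 to 0.0482). Tyms, which makes thymidylate anew, was at 118 ± 6.47 CPM in knockout and 138 ± 7.52 CPM in het clones, with the knockout clones below the het clones but an adjusted p of 0.1 (-0.23).

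Rrm2 lost its call without knockout replicate 1 or 2 (adjusted p = 0.0581 and 0.0657) or het replicate 2 (0.0579), and Rrm1 without knockout replicate 1 or 2 (adjusted p = 0.138 and 0.149) or het replicate 1, 2 or 3 (0.0713, 0.141 and 0.140). Both lie where neighbouring genes were higher too, at chr12:24708241-24714146 and chr7:102441695-102469771 (GRCm38) with local medians of 0.40 and 0.22, and with these taken out the log2 fold changes were 0.17 (adjusted p = 0.377) and 0.23 (adjusted p = 0.255), within 0.000342 to 0.377 and 0.00583 to 0.255 over all alternatives. Over all genes tested, the median was 0.41 on chromosome 12, which holds Rrm2, and -0.09 on chromosome 7, which holds Rrm1. Rrm1 also missed the threshold with RLE scaling (0.0565) and with the other filters on low counts (0.0553 and 0.052).

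Cyclin E binds CDK2 to start S phase, and the phosphatase CDC25A activates that pair. Of these 4 genes only Cdk2 passed, and it fell, with 79.1, 80.6 and 91.0 CPM in knockout and 107, 114 and 107 CPM in het clones (log2 fold change -0.39, SE 0.09, adjusted p = 0.0226). Every knockout clone lay below every het clone. The same order without overlap was seen for Ccne1, at 27.7 ± 1.36 CPM in knockout and 35.6 ± 3.63 CPM in het clones (-0.36, adjusted p = 0.0544), and Ccne2, at 33.9 ± 2.76 CPM in knockout and 40.6 ± 3.50 CPM in het clones (-0.26, adjusted p = 0.133), which did not pass. Cdc25a was at 68.6 ± 9.50 CPM in knockout and 63.7 ± 9.58 CPM in het clones (0.11, adjusted p = 0.638). Cdk2 lost its call without knockout replicate 1 or 2 (adjusted p = 0.0816 and 0.102) or het replicate 2 or 3 (0.0704 and 0.0547), and with the local median taken out (0.0841), within 0.00101 to 0.102 over all alternatives. Ccne1 passed with RLE scaling (0.0496), with a filter of at least 1 CPM in at least 3 samples (0.0458) and with DESeq2 (0.0363; range over alternatives 0.0363 to 0.487), and Ccne2 on the deposited FPKM values (0.0285 and 0.0284) and with the local median taken out (0.0455; range 0.0284 to 0.288).

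The E2F family holds activators, which drive S phase genes, and repressors. None of the activators E2f1, E2f2 and E2f3 passed. E2f1 stood at 78.4, 76.5 and 72.4 CPM in knockout and 71.5, 68.8 and 70.2 CPM in het clones, with no overlap but a small difference (0.11, adjusted p = 0.352). E2f3 was at 55.5, 49.8 and 42.0 CPM in knockout and 49.0, 53.0 and 48.8 CPM in het clones, which overlapped (-0.03, adjusted p = 0.860). E2f2 was the least abundant of all 43 genes, at 8.97 ± 0.958 CPM in knockout and 11.5 ± 2.11 CPM in het clones (-0.36, adjusted p = 0.210). E2f1 passed in 1 alternative, with the local median of -0.20 taken out (0.31, adjusted p = 0.0377; range 0.0377 to 0.599).

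Both atypical repressors, which are E2F targets themselves and shut E2F targets down later in S phase, fell. E2f8 was at 30.2, 31.0 and 29.6 CPM in the knockout clones, against 52.3, 56.6 and 55.4 CPM in the het clones (log2 fold change -0.86, SE 0.09, adjusted p = 0.00150). The clones of each genotype lay close together and far from the other genotype, and E2f8 had the smallest adjusted p of the 43 genes. Its call held under all 15 alternatives (adjusted p 4.96e-13 to 0.0145). With its local median of -0.33 taken out, its log2 fold change was -0.53. E2f7 measured 72.7, 68.9 and 66.0 CPM in knockout and 96.9, 89.8 and 86.0 CPM in het clones, without overlap (-0.39, SE 0.09, adjusted p = 0.0206). Its call was lost without knockout replicate 1 or 2 (adjusted p = 0.0519 and 0.0914) or het replicate 2 (0.0575), within 0.00175 to 0.0914 over all alternatives. E2f4, a repressor that works with RB family proteins, was at 72.3 ± 5.09 CPM in knockout and 86.9 ± 7.52 CPM in het clones and did not pass (-0.26, adjusted p = 0.104), although every knockout clone was below every het clone.

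**Figure D2:**
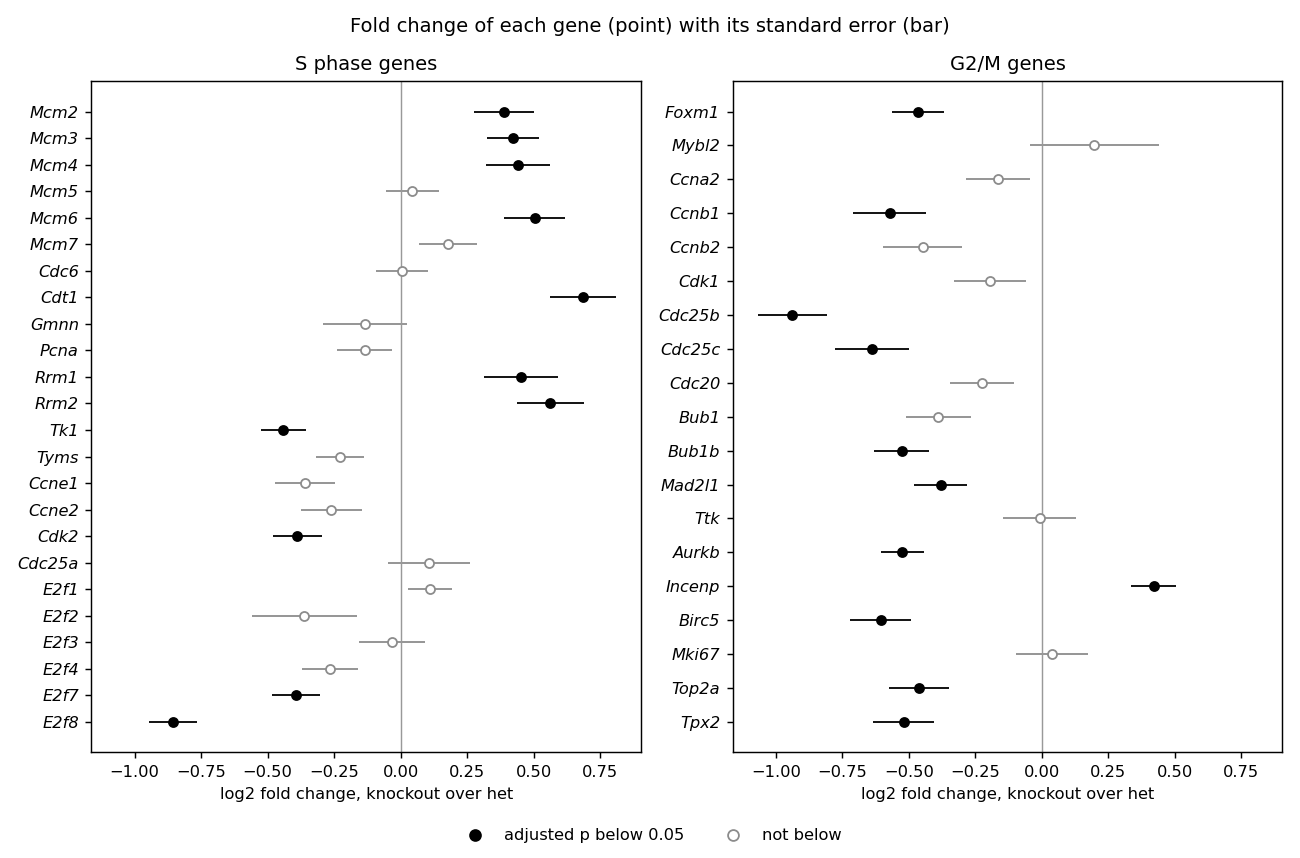
Log2 fold change, knockout over het, of each of the 43 genes (point) with its standard error (bar), for S phase genes on the left and G2/M genes on the right. Filled points have an adjusted p below 0.05. The S phase genes spread to both sides of 0, from -0.86 for E2f8 to 0.69 for Cdt1, and 16 of the 19 G2/M genes lie below 0.

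In G2/M, transcription is driven by FOXM1 and B-MYB. Foxm1 fell, with 196, 193 and 168 CPM in the knockout clones, against 257, 254 and 259 CPM in the het clones (log2 fold change -0.47, SE 0.10, adjusted p = 0.0140). The het clones lay within a few CPM of each other, and knockout replicate 3 was the lowest. Mybl2, which encodes B-MYB, spread widely within each genotype, at 105 ± 29.2 CPM in knockout and 91.5 ± 19.05 CPM in het clones (0.20, adjusted p = 0.580). Foxm1 lost its call without knockout replicate 2 (adjusted p = 0.0586), and with the local median of -0.28 taken out (-0.18, adjusted p = 0.208), within 7.96e-05 to 0.208 over all alternatives.

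Cyclins A and B bind CDK1, the kinase of mitosis, and only 1 of these 4 genes passed. Ccnb1, the main mitotic cyclin, was at 233, 221 and 218 CPM in knockout and 344, 381 and 275 CPM in het clones (log2 fold change -0.57, SE 0.14, adjusted p = 0.0222). The genotypes did not overlap, and het replicate 3 was the lowest het clone. Ccnb2 was at 102 ± 20.7 CPM in knockout and 139.8 ± 7.68 CPM in het clones (-0.45, adjusted p = 0.0640), also without overlap. Its knockout replicate 3, at 126 CPM, stood close to the het clones, and without that clone Ccnb2 passed (adjusted p = 0.00878), as it did with DESeq2 (0.0216; range over alternatives 0.00878 to 0.199). Ccna2, at 293 ± 10.3 CPM in knockout and 329 ± 41.2 CPM in het clones (-0.17, adjusted p = 0.336), and Cdk1, at 284 ± 30.9 CPM in knockout and 325 ± 39.8 CPM in het clones (-0.19, adjusted p = 0.318), overlapped between genotypes. Ccnb1 lost its call without knockout replicate 1 or 2 (adjusted p = 0.0624 and 0.0923) or het replicate 2 (0.0644), and with the local median taken out (0.0808), within 0.000540 to 0.0923 over all alternatives, whereas Ccna2 passed with the local median of 0.27 taken out (-0.44, adjusted p = 0.0409; range 0.0409 to 0.615).

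CDC25 phosphatases remove the inhibitory phosphates from CDK1, and both members for mitosis fell. Cdc25b, which acts at the entry to mitosis, stood at 68.4, 73.6 and 67.9 CPM in the knockout clones, against 159, 120.4 and 123 CPM in the het clones (log2 fold change -0.94, SE 0.13, adjusted p = 0.00365). This was the lowest fold change among the 43 genes. Het replicate 1 was above the other het clones, and the call held under all 15 alternatives (adjusted p 1.89e-08 to 0.0231). Cdc25c measured 30.9, 29.3 and 26.4 CPM in knockout and 53.1, 39.7 and 41.9 CPM in het clones, without overlap (-0.64, SE 0.14, adjusted p = 0.0170). Its call was lost without knockout replicate 2 (adjusted p = 0.0688), and with the local median of -0.26 taken out (0.0963), within 0.00138 to 0.0963 over all alternatives.

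The spindle checkpoint delays chromosome separation until every kinetochore is attached, by holding CDC20, the activator of the anaphase-promoting complex. Of 5 genes of this step, 2 fell and 3 did not pass. Bub1b, which encodes the checkpoint protein BUBR1, was at 152, 163 and 167 CPM in knockout and 249.6, 237 and 208 CPM in het clones (log2 fold change -0.53, SE 0.10, adjusted p = 0.0115). Mad2l1, which encodes the CDC20 inhibitor MAD2, was at 94.1, 86.6 and 79.4 CPM in knockout and 121, 109 and 108 CPM in het clones (-0.38, SE 0.10, adjusted p = 0.0314). Neither gene overlapped between the genotypes. The checkpoint kinase gene Bub1 was just outside the threshold, at 85.7 ± 6.19 CPM in knockout and 112 ± 14.4 CPM in het clones (-0.39, adjusted p = 0.0525), and Cdc20 was at 206 ± 9.79 CPM in knockout and 241 ± 32.4 CPM in het clones (-0.23, adjusted p = 0.207). Ttk, which encodes the kinase MPS1, was at 49.3 ± 1.40 CPM in knockout and 49.6 ± 8.87 CPM in het clones (-0.01, adjusted p = 0.969).

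Bub1b lost its call without knockout replicate 2 (adjusted p = 0.0564), and with the local median of -0.26 taken out (0.103; range over alternatives 2.53e-05 to 0.103). Mad2l1 lost it without knockout replicate 1, 2 or 3 (adjusted p = 0.0513, 0.115 and 0.0559) or het replicate 1, 2 or 3 (0.0632, 0.0683 and 0.0631) and without a filter on low counts (0.0626), but not with the local median taken out (0.00933; range 0.00695 to 0.115). Bub1 passed in 6 alternatives, among them without het replicate 3 (0.0327) and with DESeq2 (0.0219; range 0.0219 to 0.135).

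The chromosomal passenger complex corrects attachments of chromosomes and steers the last step of division. It joins the kinase Aurora B (Aurkb), the scaffold INCENP and survivin (Birc5), and here its genes split. Aurkb stood at 74.7, 75.6 and 76.7 CPM in the knockout clones, against 107, 113 and 107 CPM in the het clones (log2 fold change -0.53, SE 0.08, adjusted p = 0.00495). Birc5 was at 115, 114 and 94.1 CPM in knockout and 164, 177 and 152 CPM in het clones (-0.61, SE 0.11, adjusted p = 0.0101). Incenp rose, with 301, 309 and 311 CPM in knockout and 232, 229 and 228 CPM in het clones (0.42, SE 0.08, adjusted p = 0.0128). The genotypes did not overlap for any of the 3 genes, and the knockout clones of Aurkb and the het clones of Incenp lay within a few CPM of each other.

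The calls of Aurkb and Birc5 held under all 15 alternatives (adjusted p 3.17e-08 to 0.0366 and 4.90e-05 to 0.0422). Incenp lies on chromosome 19 (chr19:9872296-9899551, GRCm38), where the median of all genes tested was 0.39, and with its local median of 0.29 taken out its log2 fold change was 0.13 (adjusted p = 0.314). It also lost its call without knockout replicate 2 (adjusted p = 0.0674) or het replicate 2 (0.0512), within 1.66e-07 to 0.314 over all alternatives. Birc5 (chr11:117849251-117855743) and the S phase gene Tk1 (chr11:117815526-117826092) are near neighbours on chromosome 11, with 1 local median of -0.09.

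Of 3 genes of chromosome structure and the spindle, 2 fell. Top2a, the topoisomerase that untangles sister chromosomes, was at 586, 626 and 632 CPM in knockout and 823, 890.3 and 827 CPM in het clones (log2 fold change -0.46, SE 0.11, adjusted p = 0.0247). Tpx2, which activates Aurora A on the spindle, was at 289.6, 296 and 255 CPM in knockout and 421, 418 and 365 CPM in het clones (-0.52, SE 0.11, adjusted p = 0.0169). The genotypes did not overlap in either gene. Mki67, the proliferation marker that coats mitotic chromosomes, did not pass. It measured 911 ± 89.6 CPM in knockout and 887 ± 64.2 CPM in het clones, which overlapped (0.04, SE 0.14, adjusted p = 0.856), and it passed under none of the 15 alternatives (adjusted p 0.560 to 0.946). Top2a lost its call without knockout replicate 1 or 2 (adjusted p = 0.0827 and 0.101) or het replicate 2 or 3 (0.0831 and 0.0650) and with the local median taken out (0.0520; range over alternatives 1.30e-07 to 0.101). Tpx2 lost it without knockout replicate 1 or 2 (adjusted p = 0.0528 and 0.0629) or het replicate 2 (0.0577) and with the local median taken out (0.146; range 6.95e-05 to 0.146).

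**Figure D3:**
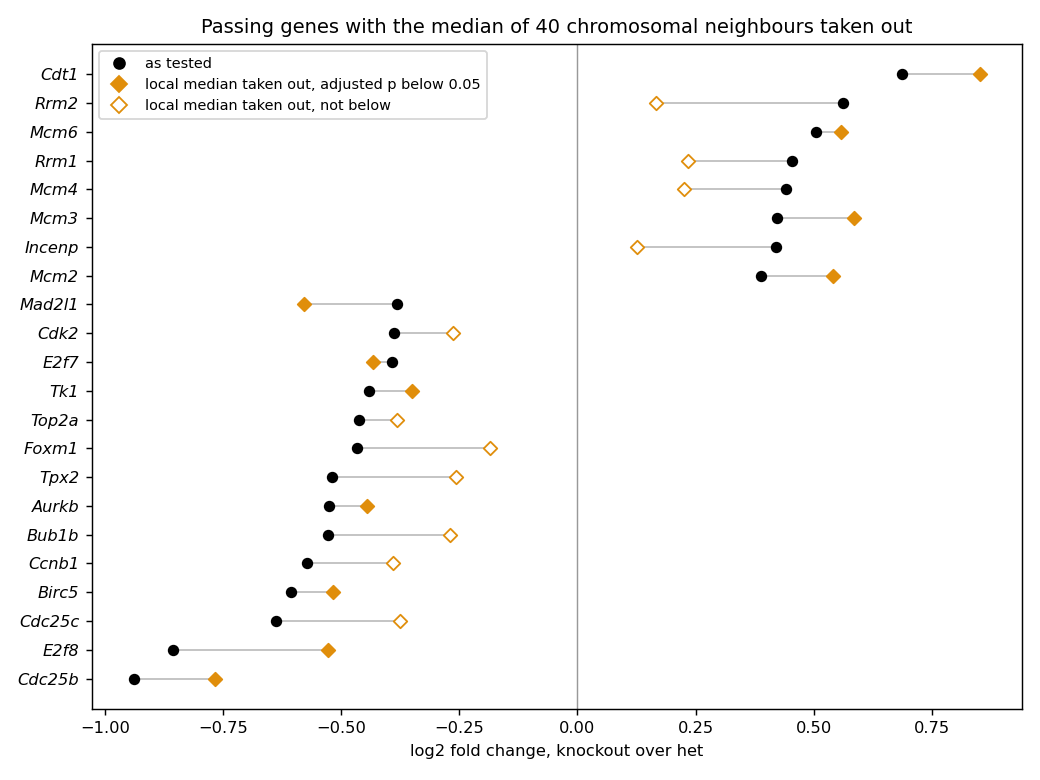
Log2 fold change, knockout over het, of the 22 passing genes as tested (black circles) and with the median change of the 40 nearest tested genes on the chromosome taken out (diamonds, filled where the adjusted p stayed below 0.05). Incenp, Rrm2, Rrm1 and Mcm4 move towards 0, as do Foxm1, Bub1b, Tpx2 and E2f8. Filled diamonds remain for 11 genes, Cdc25b, E2f8, Birc5, Aurkb, Tk1 and Cdt1 among them.

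Summed over each list, the clones separated in both phases. The 24 S phase genes summed to 5267, 4977 and 4973 CPM in the knockout clones, against 4314, 4406 and 4412 CPM in the het clones. The sum is led by the abundant MCM and ribonucleotide reductase genes, and the MCM genes alone gave 2678, 2567 and 2703 CPM in knockout and 1990 CPM, 2104 CPM and 2180 CPM in het clones. The 19 G2/M genes summed to 4175, 4189 and 4168 CPM in the knockout clones, against 5271, 5221 and 4625 CPM in the het clones. The SD of this sum was 10.7 CPM over the knockout clones and 359.5 CPM over the het clones, of which replicate 3 stood below the others. The G2/M sum divided by the S phase sum was 0.793, 0.842 and 0.838 in the knockout clones and 1.22, 1.18 and 1.05 in the het clones. These sums carry no test, since the members were chosen with results known, and a difference of the S phase change from the G2/M change was not tested. Among the het clones, replicate 3 was the lowest for 15 of the 19 G2/M genes, and among the knockout clones replicate 3 was the lowest for 13 of 19.

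**Figure D4:**
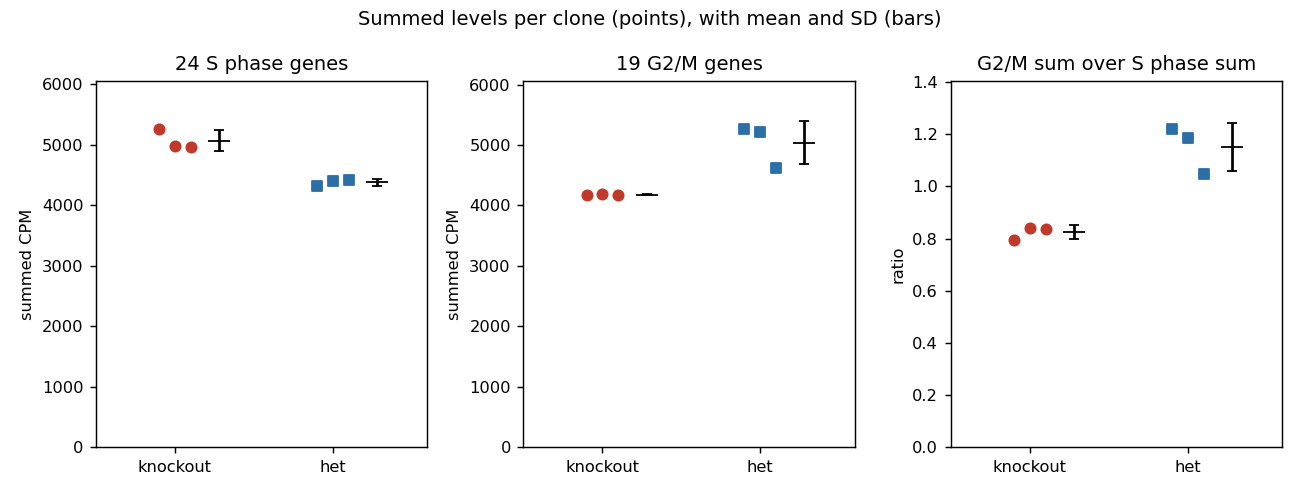
Summed CPM of the 24 S phase genes (left) and the 19 G2/M genes (middle) and the ratio of the G2/M sum to the S phase sum (right) in each clone. Points are clones, with knockout left of het, and black marks give the mean and SD of the 3 clones. In the right panel the knockout clones sit at 0.793 to 0.842 and the het clones at 1.05 to 1.22.

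Within a genotype the members were tight. The coefficient of variation of CPM over the 3 clones had a median of 6.26% in knockout and 5.90% in het clones for the S phase genes, and of 7.22% in knockout and 9.25% in het clones for the G2/M genes. Mybl2 was the most variable G2/M gene in both genotypes, at 27.9% in knockout and 20.8% in het clones. Per length, in the authors' FPKM values summed per gene, the most abundant members were Cdk1, Pcna and Mcm7. Cdk1 was at 302 ± 34.7 FPKM in knockout and 336 ± 39.7 FPKM in het clones, Pcna at 247 ± 14.5 FPKM in knockout and 267 ± 12.3 FPKM in het clones, and Mcm7 at 195 ± 14.5 FPKM in knockout and 175 ± 11.01 FPKM in het clones (SD, n = 3 each). None of these 3 genes passed the test. The least abundant were E2f2, at 1.92 ± 0.282 FPKM in knockout and 2.37 ± 0.379 FPKM in het clones, and E2f8, at 8.64 ± 0.128 FPKM in knockout and 15.2 ± 0.711 FPKM in het clones.

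Genes of the same pathways outside the 43 were counted alike. Of 52 other replication genes, 9 rose, 3 fell and 40 did not pass, with a median log2 fold change of 0.12, so that 17.3% were higher and 5.77% lower, beside 13.9% higher and 14.2% lower of all genes. With the local median taken out 5 were higher and 3 lower, beside 1306 higher and 1596 lower of all 12745 genes. The share that was higher was then close to that of all genes. The count of 12 was 8 and 5 without knockout replicate 1 and 2 and 7 without het replicate 2. Of all genes, 1892 of 13183, 1566 of 13227 and 2227 of 12987 passed in these 1-clone-out fits. Donson, a fork protection gene, was at 56.5, 57.3 and 59.5 CPM in knockout and 39.1, 33.2 and 34.1 CPM in het clones (0.70, adjusted p = 0.00423). Chaf1b, a histone chaperone subunit, was at 166, 167 and 169 CPM in knockout and 116, 119 and 124 CPM in het clones (0.48, adjusted p = 0.00610). Pola1, the catalytic subunit of polymerase alpha, and Fen1, the flap nuclease, rose by 0.53 and 0.57 (adjusted p = 0.00977 and 0.00884). Wdhd1, a replisome adaptor, fell to 87.1, 87.9 and 98.4 CPM in knockout clones, against 131, 133 and 127 CPM in het clones (-0.51, adjusted p = 0.00738), as did Gins4, a subunit of the helicase complex, and Dut, which removes dUTP (-0.38 and -0.51, adjusted p = 0.0198 and 0.0229). Fen1 lost its call with the local median taken out (0.235; range over alternatives 3.06e-05 to 0.235), Gins4 without knockout replicate 1 or 2 (adjusted p = 0.0670 and 0.0819), with a range of 0.00167 to 0.0819, and Dut without knockout replicate 2 (adjusted p = 0.0937) or het replicate 2 (0.0644) and with the local median taken out (0.144; range 0.00206 to 0.144).

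Of 68 other mitosis genes, 22 fell, 3 rose and 43 did not pass, with a median log2 fold change of -0.16, so that 32.4% were lower and 4.41% higher. The count of 25 was 11 and 6 without knockout replicate 1 and 2 and 12 without het replicate 2. Of all genes, 1892 of 13183, 1566 of 13227 and 2227 of 12987 passed in these fits. Cdca3, an adaptor of cell division, stood at 99.0, 102 and 106 CPM in the knockout clones, against 192, 178 and 181 CPM in the het clones (-0.84, adjusted p = 0.00124). The kinesins Kif18a, at 28.1, 25.4 and 27.1 CPM in knockout and 44.5, 50.8 and 45.1 CPM in het clones, and Kif20a, at 218, 227 and 177 CPM in knockout and 445, 347 and 375 CPM in het clones, fell by 0.80 and 0.91 on the log2 scale (adjusted p = 0.00286 and 0.00576), and Hmmr, a spindle protein gene, by 0.65 (adjusted p = 0.00524). All clones were separated in these 4 genes. Plk1, a master kinase of mitosis, was among the 3 that rose, at 179, 188 and 191 CPM in knockout and 135, 139 and 138 CPM in het clones (0.44, adjusted p = 0.00927). The condensin II genes Ncapg2 and Ncaph2 were higher too (0.40 and 0.32, adjusted p = 0.0304 and 0.0410). Plk1 lost its call without knockout replicate 2 (adjusted p = 0.0551) and with the local median taken out (0.0898; range 1.70e-06 to 0.0898), Ncapg2 without knockout replicate 1 or 2 (adjusted p = 0.0747 and 0.0589) or het replicate 2 or 3 (0.0937 and 0.0875), with a range of 0.00395 to 1, and Ncaph2 without knockout replicate 1, 2 or 3 (adjusted p = 0.122, 0.107 and 0.0526) or het replicate 1, 2 or 3 (0.0986, 0.107 and 0.0946), with a range of 0.00150 to 0.222. Ncapg2 and Ncaph2 also missed the threshold with library totals (0.0621 and 0.0584) and with the local median taken out (log2 fold changes -5.50e-06 and 0.17), and Ncaph2 without a filter on low counts (0.0683) and on both FPKM scales (0.0993 and 0.0973). With the local median taken out 16 of the 68 genes passed, 0 higher and 16 lower, beside 1306 higher and 1596 lower of all 12745 genes.

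**Figure D5:**
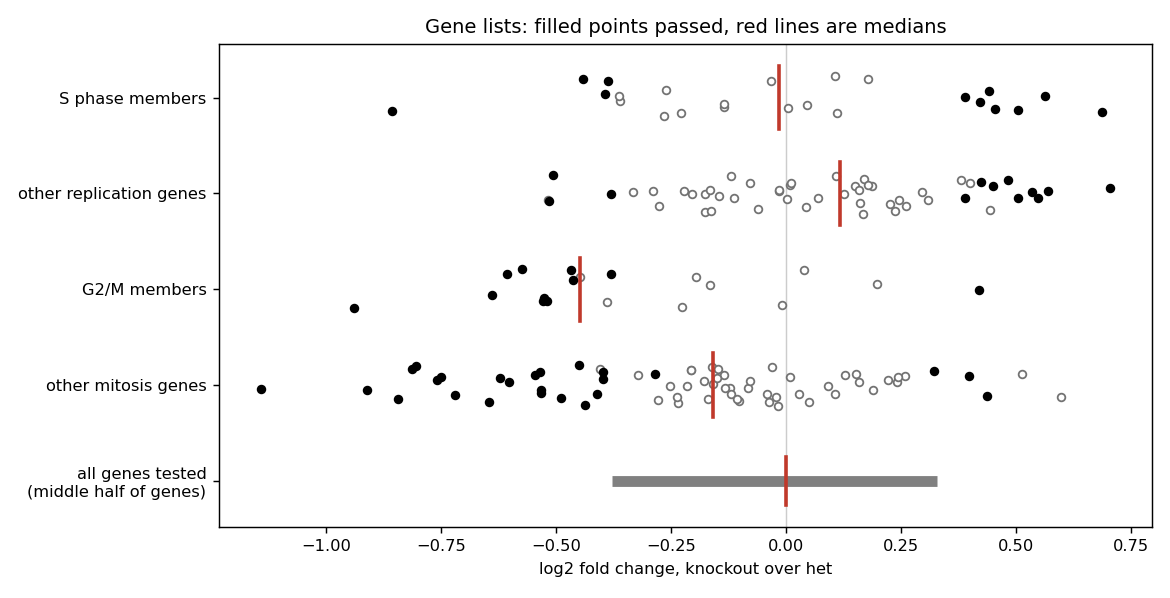
Log2 fold change, knockout over het, of the S phase and G2/M genes and of 52 other replication and 68 other mitosis genes. Each point is a gene, filled where the adjusted p was below 0.05, red lines are medians, and the grey bar spans the 25th to 75th percentile of all genes tested. The replication lists have medians of -0.01 and 0.12 and the mitosis lists of -0.45 and -0.16.

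Upstream of both waves lie the G1 cyclins and the inhibitors of their kinases, and 10 of 12 such genes passed, 3 higher and 7 lower, against 1 higher and 6 lower when scaled by library totals and beside 28.1% of all genes passing. The count of 10 was 5 without knockout replicate 1 or 2 and 6 without het replicate 3. Ccnd2, a D-type cyclin gene whose product begins RB phosphorylation, was at 0.244, 0.308 and 0.207 CPM in the knockout clones, against 117, 42.4 and 64.4 CPM in the het clones (-8.18, adjusted p = 0.000369). Ccnd1 was at 4.55, 3.67 and 2.03 CPM in knockout and 128, 102 and 70.7 CPM in het clones (-4.89, adjusted p = 0.000576). Their partner kinase gene Cdk6 was at 27.2, 30.3 and 20.2 CPM in knockout and 68.3, 99.0 and 103 CPM in het clones (-1.80, adjusted p = 0.00223). Cdkn1a, which encodes the inhibitor p21, rose, with 101, 77.2 and 72.4 CPM in knockout and 36.7, 42.8 and 49.0 CPM in het clones (0.96, adjusted p = 0.00757). The inhibitor gene Cdkn1c had no counts in any knockout clone, against 3.23, 4.89 and 1.76 CPM in the het clones, which makes it at least 19.1-fold lower by a floor of 3 counts per library (adjusted p = 0.00453). Cyclin D3 (Ccnd3) and the inhibitor gene Cdkn2d also rose (0.39 each, adjusted p = 0.0264 and 0.0445). The list's median was -0.72 on the log2 scale, also with Cdkn1c at its floor. Ccnd3 lost its call without knockout replicate 1, 2 or 3 (adjusted p = 0.05003, 0.115 and 0.0514) or het replicate 1 or 3 (0.0530 and 0.0883), with a range over alternatives of 0.00470 to 0.143, and Cdkn2d without knockout replicate 1, 2 or 3 (adjusted p = 0.0736, 0.110 and 0.0872) or het replicate 1, 2 or 3 (0.0795, 0.141 and 0.0740), with a range of 0.0321 to 0.141. Both also missed the threshold with library totals (0.0539 for Ccnd3 and 0.101 for Cdkn2d), Ccnd3 with the local median taken out (0.143) and Cdkn2d with the other filters on low counts (0.0532 and 0.0534).

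Of 12 genes of the RB family, the DREAM complex and E2F partners, Lin52 rose (0.70, adjusted p = 0.0385), Tfdp1, the dimer partner of E2F proteins, fell to 198, 194 and 159 CPM in knockout clones, against 293, 289.6 and 265 CPM in het clones (-0.62, adjusted p = 0.00957), and 10 did not pass. The 2 genes that passed are 16.7% of the list, beside 28.1% of all genes. With the local median taken out, 0 of the 12 genes were higher and 2 lower. The count of 2 was 4 without het replicate 1 and 1 without any other single clone. Lin52, a DREAM subunit, lost its call without knockout replicate 1, 2 or 3 (adjusted p = 0.0777, 0.0576 and 0.0655) or het replicate 1, 2 or 3 (0.0621, 0.117 and 0.0854), with library totals (0.0666) and with the local median taken out (0.510), with a range of 0.0140 to 0.510, and Tfdp1 held under all 15 alternatives (adjusted p 1.30e-05 to 0.0433).

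The members were also read by transcript in the authors' deposited table, which tests single transcripts of the same clones and is no independent check. It lists 133 of the members' 194 transcripts, and at its own FDR of 0.05 these hold 2 higher and 13 lower ones. Of all 24799 listed transcripts 14.0% pass, a larger share than among the members' transcripts. For the most abundant transcript of each of the 22 genes that passed here, the authors' deposited table gives the same direction in 22, a p below 0.05 in 17 and an FDR below 0.05 in 3. Those 3 are Cdt1-201 (log2 fold change 0.72, FDR 0.0139), Rrm2-201 (0.62, FDR 0.0335) and Cdc25b-202 (-1.29, FDR 2.56e-05). Transcripts of 1 gene differed in places in the authors' deposited table. Aurkb-202 had a log2 fold change of -1.08 (FDR 0.0129) and the more abundant Aurkb-201 one of -0.22 (FDR 0.593). E2f7-201, the main transcript of E2f7, had -0.16 (FDR 0.700), and E2f7-209 and E2f7-204 had -0.83 and -1.19 (FDR 0.163 and 0.0848). Cdc25b-201 had -0.35 (FDR 0.418), beside the -1.29 of Cdc25b-202. Ttk-204 had -1.29 (FDR 0.0230) and Ttk-201, the main transcript, 0.35 (FDR 0.375), and E2f1-202 and E2f1-201 had 0.51 and -0.37 (FDR 0.161 and 0.378) in the authors' deposited table. Reads shared between transcripts of a gene are divided by estimation, so these single values are less certain than the sums per gene. Pseudogenes named after members were low: Ccnb1-ps and both Pcna copies were under 0.4 CPM in every clone, and Ccnb2-ps averaged 0.955 CPM in knockout and 0.896 CPM in het clones. Copies under other names were not searched for.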

How the data were processed

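Per the submitters' processing notes, the tools were Trimmomatic 0.36, kallisto 0.42.5 and edgeR, with GRCm38.p4 as the genome build. The files the authors deposited hold estimated counts for 96626 transcripts, FPKM values for 24799 transcripts, and a comparison per transcript. Per the file headers the deposited comparison gives a log2 fold change, p-values and FDR.

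Transcripts were assigned to genes with GENCODE M21 (GRCm38): 95213 matched, 260 were assigned through the deposited comparison and 1153 (0.0174% to 0.0278% of counts) were left out. Sums were rounded, filtered with filterByExpr (count minimum 10, total minimum 15), TMM-scaled and tested with the robust quasi-likelihood test of edgeR 4.0.16 (R 4.3.3), two-sided, knockout against het without covariates, and p-values were adjusted by Benjamini-Hochberg over 12745 genes. Standard errors were derived from the F statistic. Alternatives used RLE scaling, library totals, 2 other filters, DESeq2 1.42.0, limma-voom and limma 3.58.1 on log2(FPKM + 1) and log2(FPKM + 0.1), the median of the 40 neighbouring genes taken out, and each clone left out. The procedure was tested on simulated counts. In these it called 3 of 62 genes changed 1.5-fold and 29 of 69 genes changed 2-fold. It called 53 of 63 genes changed 4-fold and 1 of 12359 genes left unchanged. The simulation left 12359 of 12553 genes unchanged, whereas 28.1% of genes passed in the data. Its shares therefore do not give the sensitivity of the test here. A gene that did not pass is not shown to be unchanged. Floors cover counting error only.

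The members, gene lists and alternatives were chosen with earlier results of these data known. Named with every clone's value were the passing members and up to 2 abundant members of roles without one. In other lists, up to 4 passing genes per direction with the smallest adjusted p were named, some of them without clone values. Other members are given as means.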

Additional observations from a re-analysis of the deposited data

How the results depend on the processing

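No paired analysis was possible because the labels carry clone names and no replicate numbers shared between genotypes. With 1 clone left out, the count of passing genes ran from 1566 to 3825 over all genes (3585 with all clones), from 3 to 9 for the S phase genes (11) and from 3 to 11 for the G2/M genes (11). These fits hold fewer samples. With the local chromosome median taken out, 5 G2/M genes passed, Ccna2 newly among them, and the median of all 19 was -0.32. The S phase median, near 0 throughout, turned positive without a filter on low counts (0.0090), with the local median taken out (0.080) and without 1 clone (-0.067 to 0.064 over the 6 clones). RLE scaling gave 5 higher and 5 lower S phase genes (7 and 4 with TMM). On log2(FPKM + 1), 1884 genes were higher and 1353 lower. Of the 22 passing genes 6 (Cdt1, Tk1, E2f8, Cdc25b, Aurkb and Birc5) held under all 15 alternatives, and none lost its call with DESeq2, limma-voom, library totals or either FPKM scale. The call was lost by 11 genes with the local median taken out, and by 12, 16 and 3 without knockout replicate 1, 2 and 3 and 5, 12 and 7 without het replicate 1, 2 and 3. Of 645 single values 533 kept direction and side of the threshold, 72 lost the call, 16 gained one and 24 reversed, none of these with a call. With the local median taken out, Mcm7 (-0.0067), Gmnn (0.29), Pcna (0.075), E2f3 (0.085), Cdk1 (0.20), Ttk (0.055) and Mki67 (-0.12) reversed. Cdc6 reversed with RLE scaling (-0.0048), library totals (-0.016), the 1 CPM filter (-0.015) and DESeq2 (-0.0053) and without het replicate 1 or knockout replicate 1 or 2 (-0.053 to 0.066 over the clones). Ttk reversed without a filter (0.014), with limma-voom (0.0021) and on both FPKM scales (0.062 and 0.066), and with 1 clone left out ran from -0.091 to 0.14. Without 1 clone Cdc25a ran from -4.28e-06 to 0.21, E2f3 from -0.13 to 0.063 and Mki67 from -0.050 to 0.081. The cause of these changes was not tested.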
